A study of Rattus norvegicus with 6 samples.

Results

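The genes described here are 10 tetraspanins, Tspan8, Tspan1, Tspan2, Tspan4, Tspan7, Cd9, Cd63, Cd81, Cd82 and Cd151. They were taken by symbol from the platform annotation, which maps 11 probe sets to exactly 1 of them, among 14217 genes and 31099 probe sets in all. Tspan2 is read by 2 probe sets and each other gene by 1. Expression was measured on 6 rat arrays, 3 of the clonal cholangiocarcinoma (bile duct cancer) strain BDEsp-TDECC, here TDECC, and 3 of the clonal cancer-associated fibroblastic strain BDEsp-TDESM, here TDESM, which the labels describe by overexpression of Acta2. Both strains came from tumours grown in Fischer 344 young adult male rats after spontaneously transformed bile duct cells (BDEsp) had been placed in the bile duct. For all 6 arrays alike the labels describe 3-D culture of rat cholangiocarcinoma cells in a collagen type I gel and mention co-culture. They also name the TGF-beta inhibitors SB 431542 and LY2157299, without saying which cultures received them. Each group is a single clone. The labels do not tell whether the replicates were grown separately, and the p-values therefore reflect variation among these arrays alone, possibly technical. In RNA of a whole culture, fewer cells of a type and less RNA per cell cannot be told apart.

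Tetraspanins are small proteins that cross the membrane several times and have a large extracellular loop. They bind each other, integrins, immunoglobulin-like proteins and proteases, and so gather partners into membrane microdomains. Cd9, Cd63 and Cd81 are widely used to identify extracellular vesicles. TSPAN8 and TSPAN1 are known from gut and other gland epithelia and their carcinomas, and rat Tspan8 was studied as a metastasis-linked antigen of rat carcinoma lines.

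The upstream sequences of the 3 genes that differed most between the strains, 1 pair high in TDECC and 1 gene high in TDESM, are shown first, 5′ to 3′, from RefSeq (build GRCr8) and ending at the base before the annotated start. Capitals mark matches, on either strand, to any of the motifs searched, which may overlap. These were the GC box, searched as GGGCGG, and the CCAAT box, searched by those 5 letters. The TATA box was searched as TATAAA. For liver and gut factors, the FOXA core was searched as TGTTTAC and the HNF1 half-site as GTTAAT.
Tspan8, chr7:53330937-53331186, plus strand: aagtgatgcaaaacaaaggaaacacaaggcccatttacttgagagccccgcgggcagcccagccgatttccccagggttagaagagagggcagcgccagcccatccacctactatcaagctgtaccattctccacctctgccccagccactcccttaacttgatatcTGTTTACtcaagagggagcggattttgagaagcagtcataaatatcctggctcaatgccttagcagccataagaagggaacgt
Tspan1, chr5:134888731-134888980, minus strand: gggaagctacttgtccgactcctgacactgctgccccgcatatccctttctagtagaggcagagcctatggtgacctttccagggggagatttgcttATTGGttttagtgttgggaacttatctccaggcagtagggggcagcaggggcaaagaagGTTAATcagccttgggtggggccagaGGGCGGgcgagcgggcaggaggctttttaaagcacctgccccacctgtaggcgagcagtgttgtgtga
Cd81, chr1:207665047-207665296, plus strand: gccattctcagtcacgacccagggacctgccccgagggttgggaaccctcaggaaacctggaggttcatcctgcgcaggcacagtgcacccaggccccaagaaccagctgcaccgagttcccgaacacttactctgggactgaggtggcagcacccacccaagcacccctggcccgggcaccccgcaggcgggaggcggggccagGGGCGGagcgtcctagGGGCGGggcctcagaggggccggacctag

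RefSeq upstream sequences were matched for 8 of the 10 genes, all but Tspan4 and Cd82. Among these 8, Tspan8 held 0 GC boxes within 250 bases and the other 7 held 1 to 3, against 30.5% of 33465 promoters with at least 1. Those promoters were taken with no filter on gene type, so they are not a matched background for these 8. Tspan8 held a FOXA core, found in 3.22% of promoters, and Tspan1 an HNF1 half-site, found in 6.45%, and a CCAAT box, found in 34% of promoters. None of the 8 windows held TATAAA, which 12.9% of promoters held. Tspan8 and Tspan1 each had 6 CpG dinucleotides, Cd81 had 13 and the other 5 had 16 to 32, against a median of 5 over all promoters. The motifs were picked for a look at these windows after the expression values were known, and a match is only a run of letters.

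The deposited values are log2 values scaled so that all arrays have nearly the same distribution, with array medians between 5.80 and 5.86. Arrays correlated at 0.974 to 0.977 within TDECC, at 0.994 to 0.997 within TDESM and at 0.824 to 0.853 between strains. The strain labels went with their markers: 7 of 7 epithelial and bile duct genes were higher and 8 of 8 fibroblast genes lower in TDECC by limma's moderated test, at an adjusted p (Benjamini-Hochberg over all genes) under 0.05. Krt19 (10.76), Krt18 (10.21) and Epcam (9.68) had the largest epithelial differences, and Col1a2 (-10.72), Fn1 (-9.67) and Col1a1 (-9.08) the largest fibroblast ones. Of 11 leukocyte genes 0 passed (1 at an unadjusted p under 0.05), with mean levels of 4.53 to 4.61 on TDECC arrays and 4.45 to 4.65 on TDESM arrays. Of 5 endothelial genes only Pecam1 passed, at 3.64 to 3.90 on TDECC arrays and 3.43 on each TDESM array, a call lost in 9 of 15 alternatives. Probe sets of a bacterial control transcript (trp), which give an idea of the array background, read 2.80 to 3.53 on TDECC arrays and 2.87 to 3.23 on TDESM arrays.

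Of the 10 tetraspanins, 4 were higher and 4 lower in TDECC and 2 did not pass an adjusted p of 0.05. Tspan8, Tspan1, Cd9 and Tspan7 were higher, and Cd81, Cd82, Tspan4 and Cd63 were lower. Among all 14217 genes 42.7% passed, 20.6% as higher and 22.1% as lower in TDECC. The arrays of the strains did not overlap for 8 of the 10 genes, against 53.6% of all genes. The median size of the difference was 1.83 over the 10 genes and 0.43 over all genes on the log2 scale. Members were chosen with earlier results known, so these shares describe them and are no test. Taken singly, each of the 8 genes had p = 0.1 in a two-sided exact permutation test, the smallest that 3 against 3 arrays allow.

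**Figure D1:**
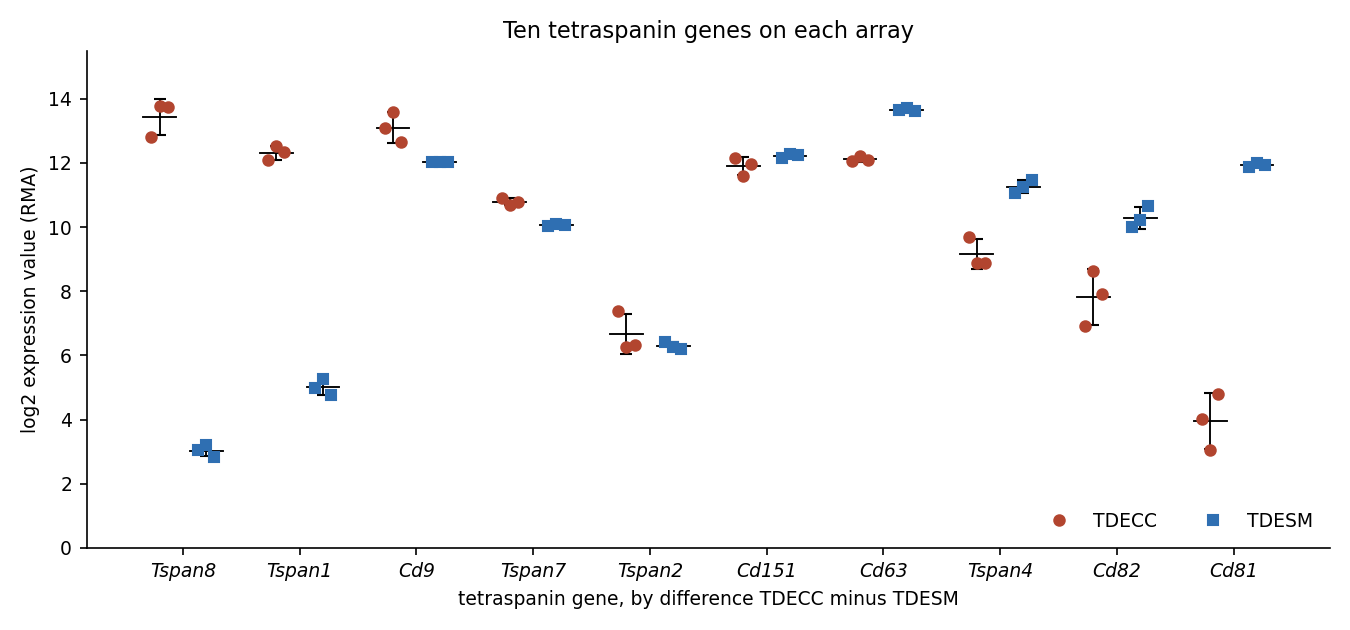
Log2 expression values (vertical axis) of the 10 genes on each array, with TDECC as circles on the left and TDESM as squares on the right of each gene. Horizontal bars are means and error bars SDs of 3 arrays. Tspan8 reads 12.80 to 13.77 in TDECC and 2.84 to 3.20 in TDESM, and Cd81 the other way, at 3.05 to 4.80 and 11.89 to 11.99. Heights of different genes are not comparable, since each probe set has its own response.

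Tspan8 showed the widest separation of the 10 genes. It read 12.80, 13.77 and 13.75 on the 3 TDECC arrays, against 3.05, 3.20 and 2.84 on the 3 TDESM arrays. All TDESM values lay at the level of the trp control, and the lowest TDECC array stood 9.60 above the highest TDESM array. The difference, TDECC minus TDESM, was 10.41 on the log2 scale (SE 0.28, 95% interval 9.75 to 11.07, limma adjusted p = 4.01e-07), a 1360-fold ratio of array values that background makes uncertain. Only 1 gene had a larger difference among those higher in TDECC, which was known when the 10 genes were chosen and is only a description, with the TDESM side at background.

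Tspan1, a further tetraspanin of gland epithelia, followed the same direction. Its values were 12.09, 12.52 and 12.35 in TDECC and 4.99, 5.27 and 4.77 in TDESM, with no overlap and a spread of 0.43 to 0.50 between arrays of a strain. The difference was 7.31 (SE 0.18, 95% interval 6.89 to 7.73, limma adjusted p = 3.10e-07), or 159-fold in array values. Its TDESM arrays read above the trp control but below the array medians of 5.80 to 5.86. Leukocyte genes averaged 4.45 to 4.65 on TDESM arrays, so background may limit the size of this ratio too.

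Cd9 and Tspan7 were well above array background in both strains and differed far less. Cd9, a tetraspanin of cell adhesion and fusion, read 13.09, 13.59 and 12.64 in TDECC and 12.03 on each of the 3 TDESM arrays. Every TDECC array was above every TDESM array, but the TDECC arrays spanned 0.95. The difference was 1.08 (SE 0.23, 95% interval 0.52 to 1.63, limma adjusted p = 0.00874). Tspan7, a tetraspanin best known from neurons, read 10.92, 10.69 and 10.78 in TDECC and 10.02, 10.10 and 10.08 in TDESM. It differed by 0.73 (SE 0.12, 95% interval 0.45 to 1.01, limma adjusted p = 0.00220), and the intervals of the Cd9 and Tspan7 differences overlapped.

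Cd81 was the mirror image of Tspan8. CD81 is a broadly expressed tetraspanin known as a hepatitis C virus receptor in human liver. It read 4.02, 3.05 and 4.80 in TDECC and 11.89, 11.99 and 11.95 in TDESM. The highest TDECC array stood 7.09 below the lowest TDESM array, and the TDECC arrays ranged from the level of the trp control to 4.80. The difference was -7.99 (SE 0.40, 95% interval -8.94 to -7.04, limma adjusted p = 6.44e-06), or 254-fold in array values. The TDECC side lies near array background, so the size of the difference is uncertain. Since 1 probe set reads Cd81, no second reading was available, and whether its low TDECC signal is low expression or a poor match between probes and transcript was not tested.

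Cd82, Tspan4 and Cd63 were also lower in TDECC, from measurable levels in both strains. Cd82 (KAI1), known as a suppressor of metastasis, read 6.91, 8.63 and 7.93 in TDECC and 9.99, 10.23 and 10.67 in TDESM. Its TDECC arrays spanned 1.72, and it differed by -2.47 (SE 0.42, 95% interval -3.48 to -1.47, limma adjusted p = 0.00294). Tspan4, a tetraspanin of migrasomes, the vesicles left behind by moving cells, read 9.69, 8.88 and 8.88 in TDECC and 11.06, 11.25 and 11.48 in TDESM. It differed by -2.11 (SE 0.25, 95% interval -2.70 to -1.52, limma adjusted p = 4.90e-04). Cd63, the tetraspanin of late endosomes, lysosomes and vesicles, read 12.06, 12.21 and 12.10 in TDECC and 13.65, 13.72 and 13.63 in TDESM. Its difference of -1.54 (SE 0.11, 95% interval -1.81 to -1.28, limma adjusted p = 4.21e-05) was small but many times the spread of either strain. The intervals of the Cd82, Tspan4 and Cd63 differences overlapped one another, and the order of these differences was not tested.

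Cd151 and Tspan2 did not pass. Cd151, the tetraspanin that binds laminin-binding integrins most tightly, read 12.16, 11.59 and 11.96 in TDECC and 12.16, 12.28 and 12.26 in TDESM. The difference was -0.33 (SE 0.17, 95% interval -0.73 to 0.07, limma adjusted p = 0.161), an interval that holds both 0 and a moderate decrease. Without TDECC replicate 1 it was -0.46 and passed (adjusted p = 0.0487). Tspan2, a tetraspanin of oligodendrocytes and other cells, read 7.38, 6.26 and 6.34 in TDECC and 6.42, 6.25 and 6.20 in TDESM. The difference was 0.37 (SE 0.30, 95% interval -0.34 to 1.08, limma adjusted p = 0.373). TDECC replicate 1 alone stood above the rest, and without it the difference was 0.01. The second Tspan2 probe set showed the same array, at 7.59, 5.57 and 5.53 in TDECC and 5.87, 5.70 and 5.27 in TDESM. In a fit over 31042 probe sets, of which 36.9% passed, it differed by 0.62 (adjusted p = 0.437).

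The size of the smaller differences, and for Cd151 also the direction, rested on the scaling of the arrays. Centred on added poly-A control transcripts, all differences moved up by about the shift of the median gene, 1.22, and 10873 genes were higher and 898 lower in TDECC, against 2930 and 3135 as deposited. Cd151 then differed by 0.89 (adjusted p = 0.0195), Tspan2 by 1.59 (adjusted p = 4.61e-05) and Cd63 by -0.32, no longer past the threshold (adjusted p = 0.406). The 10 genes then split into 6 higher and 3 lower. Tspan8 at 11.63, Tspan1 at 8.53 and Cd81 at -6.77 kept direction and call. Such centring adds 1 offset per array, shared by all genes, and the SE was then 0.37 for each of the 10 genes. The counts and adjusted p-values after poly-A centring, here and below, therefore do not measure each gene's own variation among arrays. Only the differences can be read.

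**Figure D2:**
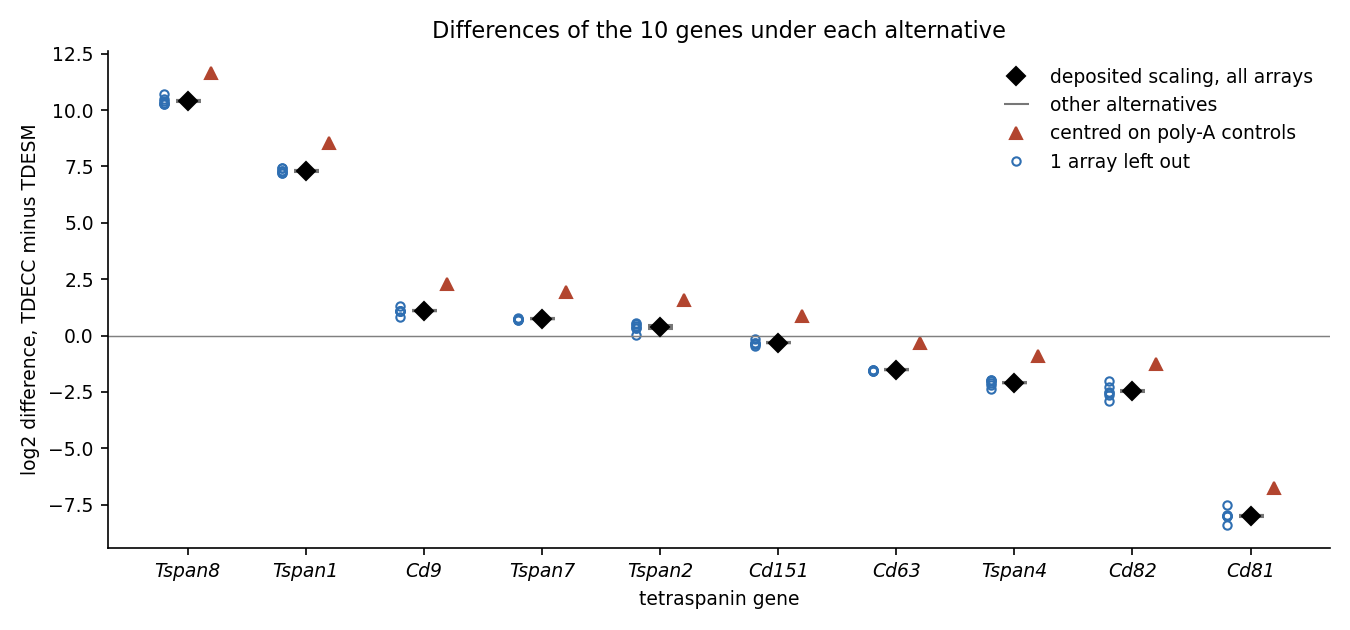
Log2 difference, TDECC minus TDESM (vertical axis), of the 10 genes (horizontal axis). Black diamonds are the values as deposited, open circles the fits without 1 array, red triangles the values centred on poly-A controls and grey dashes the other alternatives. Tspan8 (10.25 to 11.63), Tspan1 (7.19 to 8.53) and Cd81 (-8.41 to -6.77) stay far from 0, while Cd151 (-0.46 to 0.89) lies on both sides of it.

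The TDECC arrays varied more than the TDESM arrays. The SD was larger in TDECC for 9 of the 10 tetraspanins, with medians of 0.47 in TDECC and 0.09 in TDESM, and for 77.3% of all genes, with medians of 0.24 and 0.12. No array was the low or the high outlier throughout. TDECC replicate 1 was the lowest of the 3 for Tspan8, Tspan1, Cd63 and Cd82, and the highest for Tspan2, Tspan4, Tspan7 and Cd151. Cd81 was lowest in TDECC replicate 2 and highest in replicate 3.

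Of 23 further tetraspanins listed for comparison, 18 were measured, of which 4 were higher, 8 lower and 6 did not pass, beside 20.6% higher and 22.1% lower among all genes. Tspan13 read 9.99, 10.53 and 11.15 in TDECC and 5.38, 5.38 and 5.27 in TDESM, a difference of 5.21 (SE 0.28, limma adjusted p = 8.74e-06). Upk1a, a uroplakin of the urinary tract lining, read 5.28, 9.70 and 8.31 in TDECC and 3.31, 3.19 and 3.26 in TDESM. All 3 TDECC arrays were above the TDESM arrays, yet they spread so widely that its difference of 4.51 had a 95% interval of 2.14 to 6.88 (limma adjusted p = 0.00960). Tspan33 differed by 1.65 (limma adjusted p = 0.0137), a call lost without TDESM replicate 2 or 3, and averaging its probe sets gave 0.64 (adjusted p = 0.0701). Tspan15 differed by 1.51. The lower genes were Tspan5 (-3.03), Tspan9 (-2.94), Tspan17 (-2.13), Tspan18 (-2.06), Tspan12 (-1.49), Tspan31 (-1.30), Tspan6 (-1.01) and Rom1 (-0.70), the last a photoreceptor tetraspanin whose call was lost in 6 alternatives, the sign turning in 1 more. Tspan15, the lower genes after Tspan17, and Cd37 and Cd53 were named in addition, with their values known. Tspan12 read 3.13, 3.31 and 3.88 in TDECC, near array background, and 4.99, 4.70 and 5.11 in TDESM. Centred on the poly-A controls, Tspan12 and Tspan31 lost their calls and Tspan6 turned to 0.21. Cd37 and Cd53, tetraspanins of leukocytes, stood at 3.17 to 3.23 and 3.27 to 3.87 in TDECC and at 3.17 to 3.36 and 3.21 to 3.29 in TDESM.

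**Figure D3:**
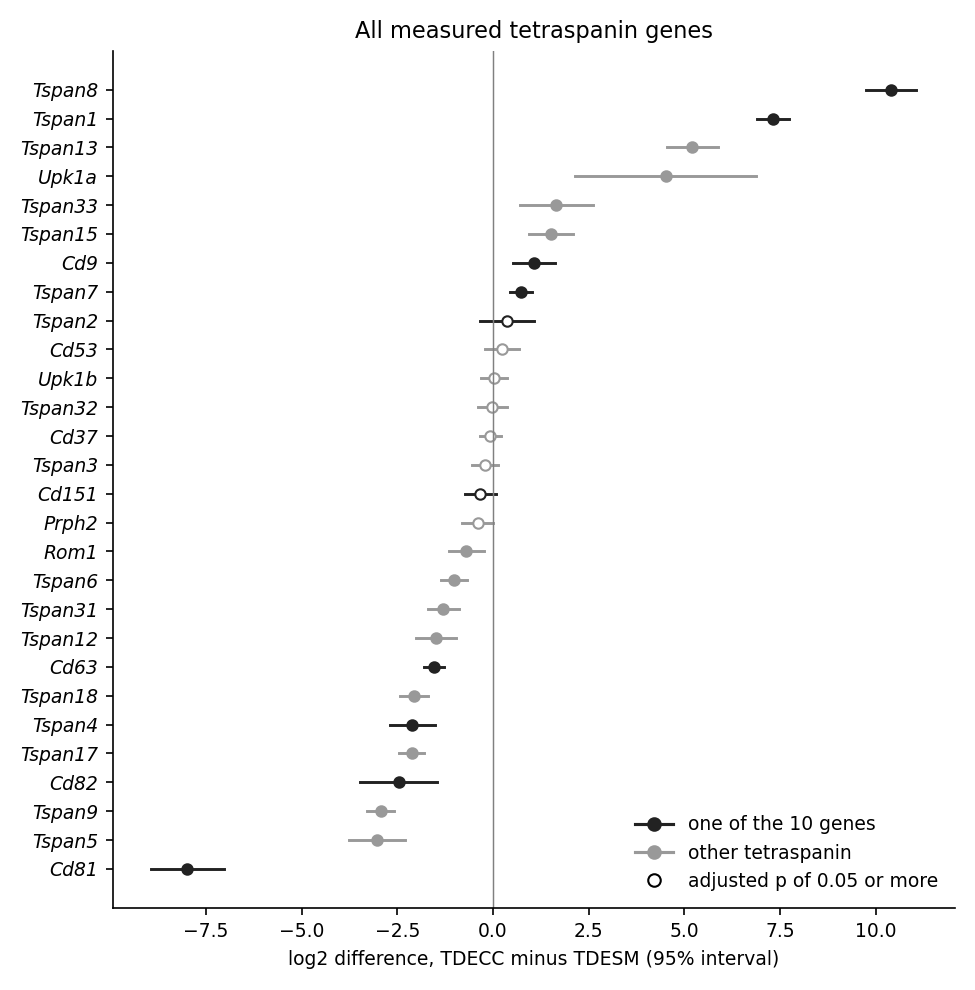
Log2 difference, TDECC minus TDESM (horizontal axis), of the 28 measured tetraspanin genes, with 95% intervals from limma. Black marks the 10 genes and grey the other tetraspanins, and open points have an adjusted p of 0.05 or more. Tspan8 (10.41), Tspan1 (7.31) and Tspan13 (5.21) lie at the top and Cd81 (-7.99) stands alone at the bottom.

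A subgroup of tetraspanins escorts ADAM10, a protease that sheds the outer part of membrane proteins, and its measured genes split between the strains. Tspan15 read 8.69, 9.46 and 9.61 in TDECC and 7.74 on each TDESM array (limma adjusted p = 0.00210). Tspan33 was likewise higher in TDECC by its brightest probe set. Tspan5, at 7.35, 6.12 and 6.35 in TDECC and 9.52, 9.77 and 9.63 in TDESM, was lower (limma adjusted p = 2.52e-04), and its 3 probe sets differed by -3.48 to -2.85. Tspan17, at 7.76, 7.73 and 7.97 in TDECC and 9.88, 9.83 and 10.15 in TDESM, was lower as well (limma adjusted p = 2.66e-05). Adam10 itself differed by 0.96 (limma adjusted p = 0.0252), and did not pass when any 1 TDESM array was left out (adjusted p = 0.0594 to 0.0945), and Adam17, a related protease named in addition, by 0.14 (limma adjusted p = 0.550).

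All 9 measured integrin subunits passed, against 42.7% of all genes, 3 as higher and 6 as lower in TDECC. The higher subunits were chains of laminin-binding integrins, which CD151 and TSPAN8 are known to associate with, but not every such chain was higher. Itgb4 read 10.89, 11.10 and 10.39 in TDECC and 4.44, 4.71 and 4.56 in TDESM, a difference of 6.22 (SE 0.20, limma adjusted p = 8.28e-07). Itga3 differed by 1.97 (limma adjusted p = 4.44e-04) and Itga6 by 1.92 (limma adjusted p = 3.25e-04), or by 1.09 with the mean of the 4 Itga6 probe sets. Singly these differed by 1.92, 1.72, 0.66 and 0.05. Those at 0.66 and 0.05 did not pass in the fit over all probe sets (limma adjusted p = 0.134 and 0.845). The lower subunits were Itga7 at -4.80 (-3.14 with the mean of its probe sets), another laminin receptor chain known from muscle, Itgb3 at -2.51, Itgb5 at -2.38, Itgav at -2.22, Itgb1 at -1.35 and Itga5 at -0.96. Itgb3 read 3.67, 4.12 and 3.83 in TDECC, near array background, and 6.20, 6.49 and 6.47 in TDESM. Itgb1, Itgav and Itga5 were named in addition, after their values were seen. Centred on the poly-A controls Itgb1 was at -0.13, not past the threshold, and Itga5 at 0.26.

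Among 16 other proteins known to associate with tetraspanins 6 were higher, 5 lower and 5 did not pass, beside 20.6% higher and 22.1% lower among all genes. The median difference was 0.46, against 0.00 over all genes. Epcam and Cdh1 also belong to the epithelial marker list above, so they follow the contrast of the strains. Epcam, Cdh1 and Cldn7 were higher, at 9.68, 9.29 and 4.06, of which EpCAM and claudin-7 were described in complexes with rat Tspan8. Averaging the Cdh1 probe sets gave 4.79. Cldn7 read 7.39, 10.22 and 7.60 in TDECC and 4.35, 4.50 and 4.17 in TDESM. Timp1, a ligand of CD63 in human cells, was lower at -3.58 (9.07, 9.38 and 8.90 in TDECC and 12.68, 12.74 and 12.66 in TDESM). Igsf3, of the same immunoglobulin subfamily as Ptgfrn and Igsf8, was lower at -2.64 and the membrane protease Mmp14 at -1.35, or -0.13 after poly-A centring. Ptgfrn and Igsf8, the direct partners of CD9 and CD81, were named after their values were seen. Ptgfrn differed by -0.59 (limma adjusted p = 0.00780), or by 0.63 after poly-A centring, and lost its call centred on housekeeping genes (adjusted p = 0.0924). Igsf8 read 7.45, 7.54 and 7.33 in TDECC and 7.15, 7.54 and 7.62 in TDESM (limma adjusted p = 0.989). Cd44, also added, differed by -1.15, a call lost without TDESM replicate 2 or 3 (adjusted p = 0.0555 and 0.0560), or by 0.07 after poly-A centring.

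Of 18 genes of extracellular vesicles and endosomes, 5 were higher, 2 lower and 11 did not pass, a share near the 42.7% of all genes that passed. Chmp4b, a subunit of the ESCRT machinery that pinches off vesicles, was higher by 2.71. The related secretion GTPases Rab27b and Rab27a went opposite ways. Rab27b read 7.68, 8.76 and 7.0 in TDECC and 6.40, 5.75 and 5.32 in TDESM, a difference of 1.99 (limma adjusted p = 0.0126). Rab27a read 5.74, 5.00 and 6.77 in TDECC and 8.22, 8.09 and 8.37 in TDESM, a difference of -2.39 (limma adjusted p = 0.00297). With the mean of all probe sets these were 1.28 and -1.56. Rab27b did not pass once TDESM replicate 3 was left out (adjusted p = 0.0566). In the fit over all probe sets, a Rab27b probe set at 0.57 did not pass (limma adjusted p = 0.126). Nor did a Rab27a probe set at -0.47 (limma adjusted p = 0.190), while the other probe sets of both genes passed. Sdc4, a syndecan, was higher by 1.37, and Flot1, flotillin, lower at -1.71, or -0.49 after poly-A centring, where it did not pass.

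**Figure D4:**
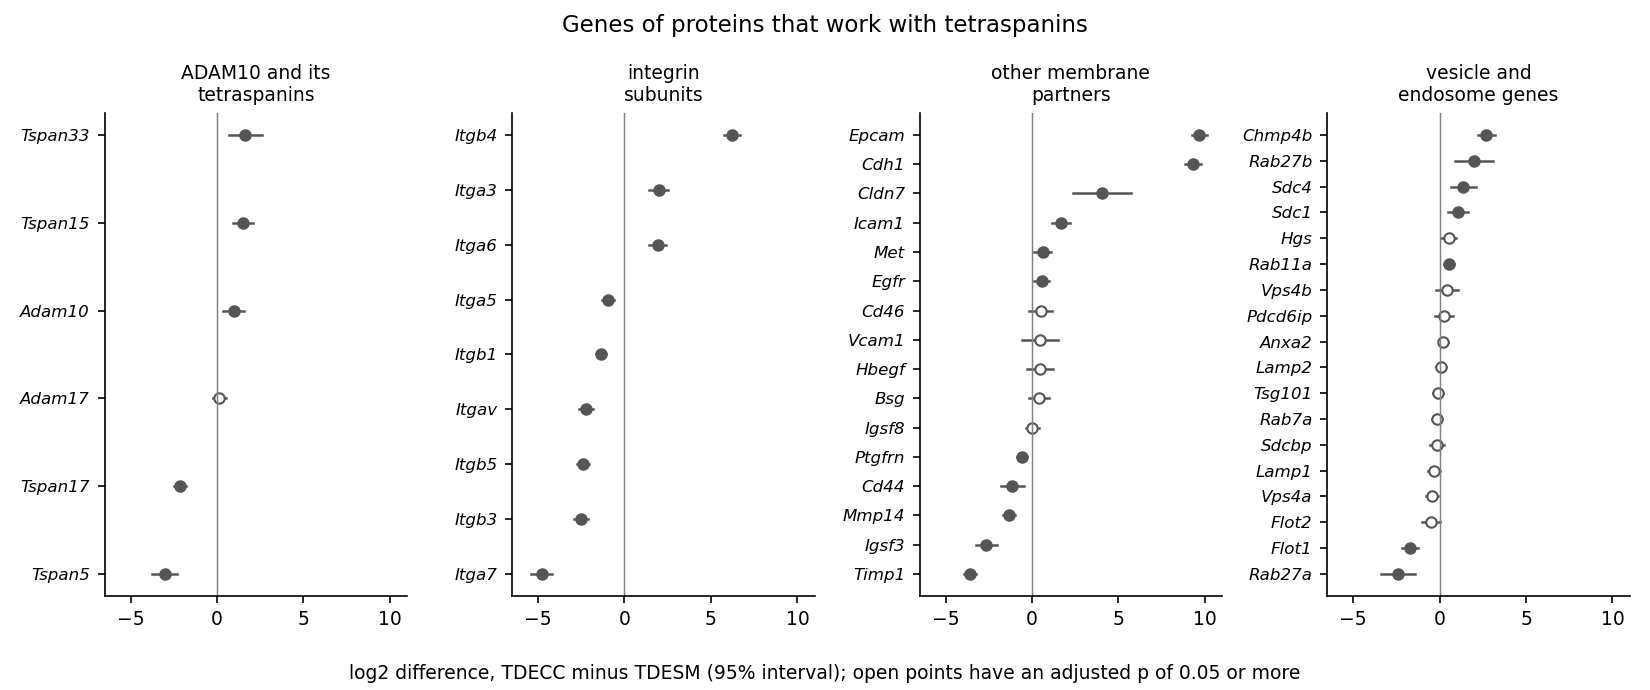
Log2 difference, TDECC minus TDESM (horizontal axes), with 95% intervals, for 4 groups of genes whose products work with tetraspanins. Open points have an adjusted p of 0.05 or more. Itgb4 (6.22), Epcam (9.68) and Cdh1 (9.29) lie far to the right, Itga7 (-4.80) and Timp1 (-3.58) to the left, and most vesicle genes near 0.

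Genes close to Tspan8 were sought by the Euclidean distance between log2 values over the 6 arrays. Probe sets differ in response, so this measure finds probe sets with like readings on these arrays and says nothing of like expression levels. The nearest 5 were Epcam (distance 1.12), Cdh1 (1.54), Krt18 (1.72), Krt19 (1.90) and Mal2 (1.99). Done likewise for Cd81, a choice made after seeing the data, the nearest were Tceal9 (0.81), Gask1b (1.03), P4ha3 (1.17), Col11a1 (1.23) and Cxcl12 (1.30).

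Tspan8 lies on rat chromosome 7 and Cd81 on chromosome 1, and the nearest genes were set beside them. This look at neighbours in RefSeq order, 10 protein-coding genes on each side, was chosen after seeing the data. Of 15 measured genes around Tspan8, 3 were higher and 3 lower, with a median difference of -0.17, against 20.6% higher and 22.1% lower among all genes. The next gene, Ptprr, a receptor tyrosine phosphatase, was the highest of them at 4.97 (limma adjusted p = 4.26e-04), and Rab3ip followed at 2.17. Of 16 measured genes around Cd81, 7 were higher in TDECC and 0 lower, with differences from -0.22 to 4.89. Kcnq1 (4.89), Phlda2 (4.33), Cdkn1c (3.06) and Slc22a18 (2.90), genes known from an imprinted region, were higher in TDECC beside a Cd81 that was lower. Cdkn1c no longer passed when TDESM replicate 2 was left out (adjusted p = 0.0503). The immediate neighbours of Cd81 did not pass: Tspan32 differed by -0.02 (limma adjusted p = 0.937) and Tssc4 by -0.22 (limma adjusted p = 0.399), or by 1.0 after poly-A centring (adjusted p = 0.00899). Around the other 8 genes the same look found the most calls in the member's own direction for Cd82, with 0 higher and 11 lower of 17 (median -0.83), and for Cd63, with 2 higher and 7 lower of 13 (median -0.58). Around the other 6, 1 to 6 genes were higher and 0 to 4 lower. Tspan4 and Cd151 lie near each other on chromosome 1 with Polr2l between them, and differed by -2.11 and -0.33.

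**Figure D5:**
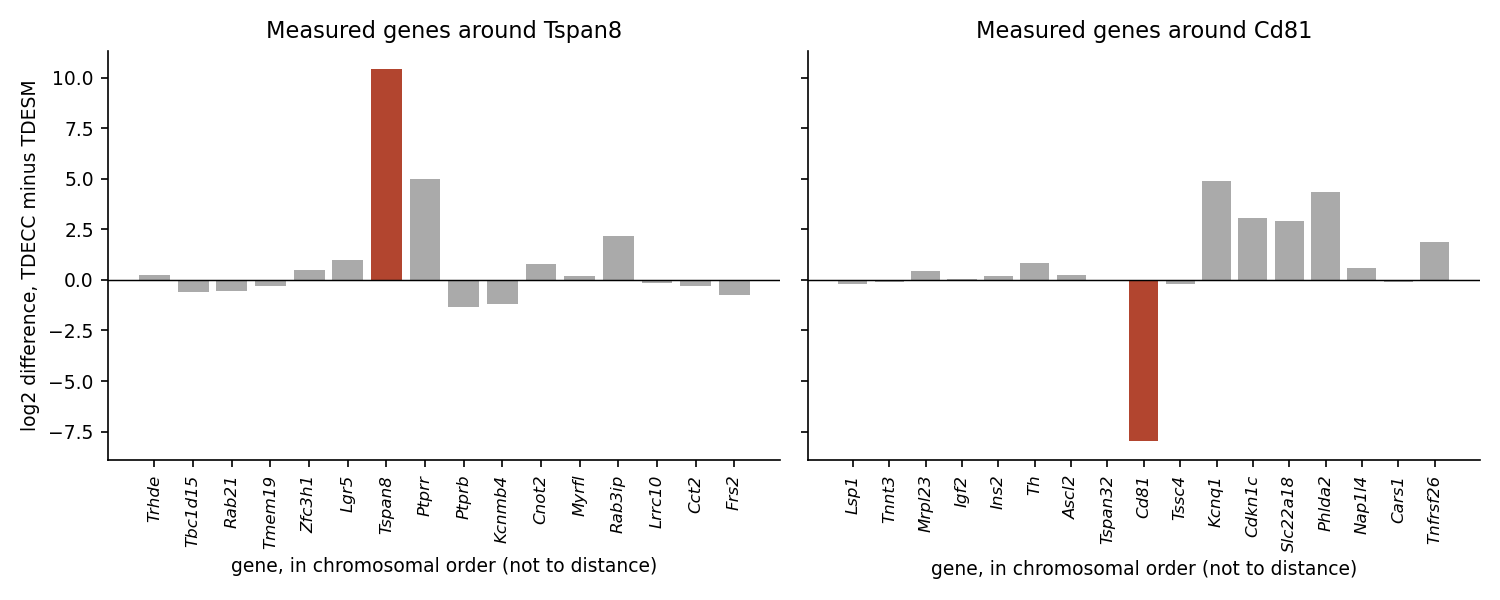
Log2 difference, TDECC minus TDESM (vertical axis), of the measured genes within 10 protein-coding genes on each side of Tspan8 and Cd81, in chromosomal order and not to distance. The named gene is red and its neighbours grey. Tspan8 (10.41) stands above every neighbour, and Cd81 (-7.99) points down where Kcnq1 (4.89) and Phlda2 (4.33) point up.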

How the data were processed

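Trizol-extracted RNA was turned into biotin-labelled cRNA for Affymetrix arrays, per the labels' protocols. RMA is the tool named in the submitters' processing notes, with no version, and the authors deposited its log2 values. Groups and replicate numbers came from sample titles.

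Values were analysed in R 4.3.3 with limma 3.58.1 (lmFit, eBayes, two-sided, Benjamini-Hochberg, threshold 0.05). Of 31099 probe sets, 57 were controls, 20826 named 1 symbol, 436 several and 9780 were unnamed here. Each gene took its probe set with the highest mean, giving 14217 genes, with no filter on dim ones. The limma step was tested on simulated data. Of each list up to 3 genes each way were named, with the largest differences past the threshold and no overlap, besides those stated to be added. Members and lists were chosen with earlier results of these data known. Alternatives were cyclic loess, centring on housekeeping, ribosomal protein or poly-A control transcripts, averaging a gene's probe sets, dropping the 33.3% of genes with the lowest means, probe sets in place of genes, trend and robust eBayes, array weights by strain, the replicate block, each array left out and a minimum log2 difference of 1. Upstream sequences came from RefSeq. No protein sequences were used here.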

Additional observations from a re-analysis of the deposited data

How the results depend on the processing

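Over 16 alternatives for each of the 10 tetraspanins, 155 of 160 values kept their direction and their side of the threshold. The exceptions were Cd63, Tspan2 and Cd151 centred on the poly-A controls (-0.32, 1.59 and 0.89, the Cd151 probe set likewise at 0.89), Cd151 without TDECC replicate 1 (-0.46), and Tspan7, which is below a minimum log2 difference of 1. Many values kept their direction by construction. Trend and robust eBayes, array weights, the replicate block, the cut of dim genes and the minimum difference leave the difference itself unchanged. Among the 10 genes, averaging probe sets can move it for Tspan2 only. The second Tspan2 probe set ranged from -0.06 to 0.97 with 1 array left out, the lowest without TDECC replicate 1. The count of tetraspanins past the threshold was 7 to 9 under every alternative, 8 with the replicate block, which changed no tetraspanin's call. Same-numbered arrays did not deviate together (correlations of -0.09 to -0.01). This does not tell whether arrays with the same number were grown or handled together. Of all genes 6065 passed, against 11771 centred on the poly-A controls, where all genes share the offset of each array. The counts were 3621 with a minimum log2 difference of 1 (fewer by construction), 11470 of 31042 probe sets, and 5342 with the replicate block. Of 890 values of 56 other named genes, 843 kept direction and call, many again with a direction fixed by construction. Centred on the poly-A controls, signs turned for Ptgfrn (0.63), Itga5 (0.26), Cd44 (0.07), Tssc4 (1.0), Tspan6 (0.21) and Rom1 (0.52), an upward shift of all genes by construction. Igsf8, at 0.00, moved to -0.07 with cyclic loess and ranged from -0.14 to 0.09 with 1 array left out, and Adam17 ranged from 0.00 to 0.23. With 1 array left out, Tspan8 ranged from 10.25 to 10.73 and Cd81 from -8.41 to -7.53. Levels at or near array background limit the size of the Tspan8 and Cd81 differences, and may limit that of Tspan1.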
